A study of Mus musculus with 48 samples.

Results

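The genes described here encode the core of the splicing machinery: the Sm and snRNP proteins (symbols starting with Snrp), the SF3A and SF3B subunits (Sf3a, Sf3b), the SR proteins (Srsf) and the hnRNP proteins (Hnrnp). They were chosen by symbol among protein-coding genes, and 52 of the 50600 genes listed in the count files met the rule. There were 12 Sm/snRNP genes, 9 SF3 genes, 11 SR genes and 20 hnRNP genes. A filter on low counts kept 13889 genes for testing, and 51 of the 52 were among them. The exception was Srsf12, with 15 counts in all 12 libraries together and 0 to 4 in each.

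RNA came from mPDAC cells, mouse pancreatic ductal adenocarcinoma cells labelled as FVB/N x C57BL6 and 8-week-old. Cells were treated for 48 h with 50 µM N6L, a pseudopeptide that antagonises nucleolin, or were left non-treated (NT). Each of 6 samples, NT1, NT2 and NT4 and N6L1, N6L2 and N6L3, gave 1 cytoplasmic and 1 polysomal library from one lysate cleared of nuclei and mitochondria, so that there were 4 groups of 3 libraries. The cytoplasmic library measures an mRNA relative to the other RNA of the cytoplasm. The polysomal library measures it relative to the other RNA that sedimented with several ribosomes. Neither gives an amount per cell, so a change in total polysomal RNA does not show in these values. The paper reported lower polysome peaks after N6L. All samples were mPDAC cells in culture, and the labels do not say whether the samples of a group were separate cultures, so p-values measure the spread between these samples only.

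Splicing removes introns from pre-mRNA in the nucleus. The small nuclear ribonucleoproteins U1, U2, U4 and U5 each carry a ring of Sm proteins around their RNA, assembled in the cytoplasm by the SMN complex, and U6 carries the related LSm ring. SF3A and SF3B are parts of U2 and hold it at the branch point of the intron. SR proteins bind exonic enhancers through RNA recognition motifs and recruit the spliceosome through domains rich in arginine and serine, while hnRNP proteins coat nascent RNA and often oppose exon inclusion. Many SR and hnRNP genes limit their own level through alternatively spliced transcripts that undergo nonsense-mediated decay.

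Libraries held 19519911 to 44972333 counts. Values are CPM, counts scaled to a common library size with factors from the trimmed mean of M-values (TMM), changes are log2 fold changes with the standard error (SE), and FDR is the Benjamini-Hochberg adjusted p of edgeR's quasi-likelihood test over all 13889 genes, called under 0.05. In bulk libraries, fewer cells of a kind and less RNA per cell cannot be told apart. The 9 ductal markers summed to 6522 to 10750 CPM in every library. Of these, 7 passed the filter on low counts, Epcam and Cldn4 did not, and Krt8, Krt18 and Krt19 had the highest means. The 6 fibroblast markers summed to 0.450 to 1.22 CPM with Lum at 0 counts, the 5 leukocyte markers to 0.637 to 2.13 CPM and the 4 endothelial markers to 0.351 to 1.15 CPM. Of the 5 acinar markers, Prss1, Cpa1 and Ptf1a were at 0 counts and the sum was 29.8 to 86.8 CPM, most of it Cela1 (group means 32.4 to 63.0 CPM). Krt7 was called lower (log2 change -0.97) and Sox9 (1.09), the endothelial Pecam1 (1.93) and the acinar Bhlha15 (1.18) higher in the N6L cytoplasm, and their part in the results was not tested. Pecam1 was near the floor, with means of 0.0926 CPM in the NT and 0.361 CPM in the N6L cytoplasm. Ncl, which encodes nucleolin, was not called in the cytoplasm (log2 change -0.11, SE 0.31, FDR 0.812). Its cytoplasmic level was 974, 1556 and 1477 CPM in NT1, NT2 and NT4 and 1157, 1297 and 1261 CPM in N6L1, N6L2 and N6L3, so the treatments overlapped. On polysomes Ncl stood at 885, 813 and 924 CPM in the NT samples and at 798, 479 and 231 CPM in the N6L samples (log2 change -0.80, SE 0.31, FDR 0.122), without overlap. N6L3 stood apart from the other samples: it held the lowest polysome-to-cytoplasm ratio of the 6 samples for 37.1% of all tested genes and the highest for 33.9%.

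**Figure D1:**
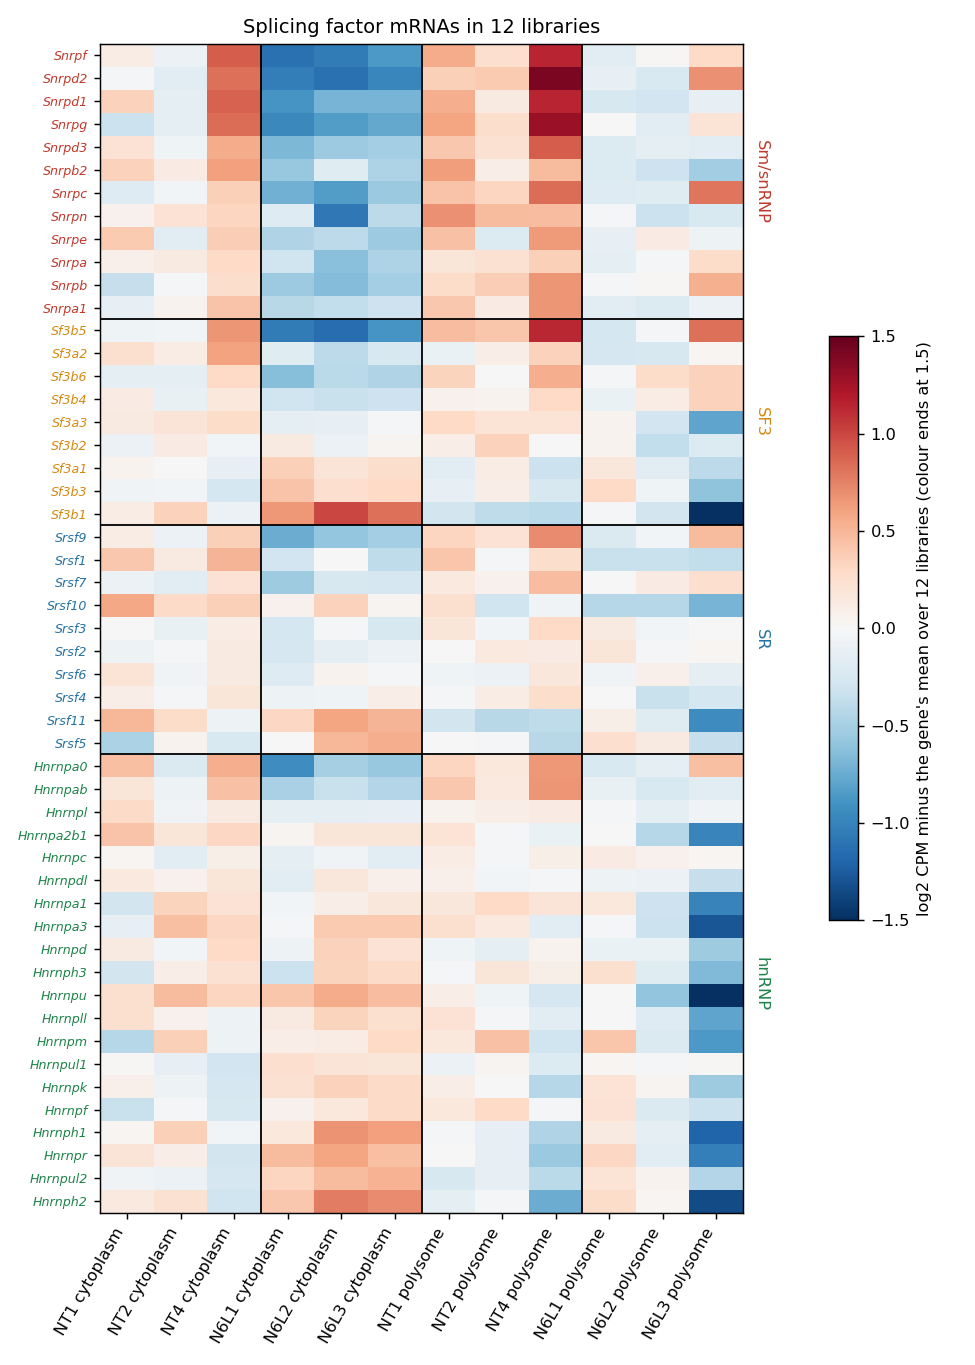
Colour shows log2 CPM of each of the 51 tested genes (rows, grouped by family and ordered by their cytoplasmic change) in each of 12 libraries (columns), minus the mean of that gene over the libraries. The 12 Sm/snRNP rows are low in all 3 N6L cytoplasmic libraries, and many hnRNP rows are lowest in the N6L3 polysome library.

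After N6L, mRNA for the Sm and snRNP proteins made up a smaller share of the cytoplasmic libraries. Of the 51 genes of all families, 18 fell and 2 rose there. Of the 12 Sm/snRNP genes, 11 fell past the limit and 0 rose, and the exception, Snrpn, had a log2 change of -0.73 with an FDR of 0.0514. Over all genes tested, 13.8% were called lower and 14.5% higher in this comparison. The median log2 change was -0.77 for the 12 Sm/snRNP genes, beside 0.04 for all genes tested. The 3 N6L values lay below the 3 NT values for 12 of the 12 genes, and among all genes 25.6% were separated in this direction and 29.3% in the other. Summed over the family, the level was 1657, 1572 and 2409 CPM in the NT cytoplasm and 1029, 1038 and 1081 CPM in the N6L cytoplasm (1879 ± 461 against 1049 ± 27.97, SD, n = 3).

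Snrpf (ENSMUSG00000020018, GRCm38 chromosome 10 from 93583029 to 93589706, minus strand) encodes SmF, a member of the Sm ring. Its cytoplasmic level was 118, 103 and 206 CPM in NT1, NT2 and NT4 and 50.3, 52.8 and 60.35 CPM in N6L1, N6L2 and N6L3. The highest N6L sample thus held less than the lowest NT sample, and NT4 stood well above NT1 and NT2. Snrpf fell by 1.38 on the log2 scale (SE 0.27, FDR 0.00348, edgeR). Snrpd1 (ENSMUSG00000002477, chromosome 18) encodes SmD1, which pairs with SmD2 in the ring. It was measured at 238, 169.6 and 345 CPM in the NT samples and at 101, 115 and 115 CPM in the N6L samples. The groups were separate again, and the log2 change was -1.18 (SE 0.26, FDR 0.00602, edgeR). Snrpd3 (ENSMUSG00000020180, chromosome 10 from 75517551 to 75537381, plus strand) encodes SmD3, the partner of SmB. Its values of 196, 161 and 248 CPM in the NT samples went to 106, 116 and 119 CPM in the N6L samples, a log2 change of -0.83 (SE 0.19, FDR 0.00770, edgeR).

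Genes for proteins of a single snRNP fell as well. Snrpb2 (ENSMUSG00000008333, chromosome 2 from 143063039 to 143072853, plus strand) encodes the B″ protein of the U2 particle, and was at 101, 86.3 and 122 CPM in the NT and at 53.5, 69.9 and 57.5 CPM in the N6L cytoplasm. Its N6L values were all below its NT values, with a log2 change of -0.77 (SE 0.18, FDR 0.00853, edgeR). Snrpa (ENSMUSG00000061479, chromosome 7 from 27187005 to 27196271, minus strand), which encodes the A protein of the U1 particle, was at 104, 108 and 121 CPM without and 80.4, 64.1 and 71.3 CPM with N6L. That is a log2 change of -0.63 (SE 0.15, FDR 0.0101, edgeR), with no overlap, and -0.29 (FDR 0.0570) with an offset for transcript length and GC content. Snrpa1, for the A′ protein of the U2 particle, and Snrpc, for the C protein of the U1 particle, had log2 changes of -0.50 and -0.76. The other ring genes Snrpd2, Snrpg, Snrpe and Snrpb had log2 changes of -1.32, -1.08, -0.69 and -0.56. For Snrpe and Snrpg, processed copies elsewhere in the genome at 90% identity or more took 11.4% of the counts of gene and copies together, so reads may be split between them. Hnrnpa1 and Hnrnpa3 have 12 and 33 such copies, which took 0.689% and 0.475%. Snrpn shares its strand and locus with Snurf and was the least expressed gene of the family, at 1.56, 1.73 and 1.85 CPM in the NT and 1.29, 0.707 and 1.13 CPM in the N6L cytoplasm.

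The count of Sm/snRNP genes called lower depended on single samples, but 5 of them, Snrpf, Snrpd1, Snrpd2, Snrpd3 and Snrpb2, were called under all 17 alternatives. It was 7 without NT4, 7 without N6L1 and 5 without N6L2. When libraries were scaled by their totals alone, which moved the median log2 change of all genes from 0.04 to 0.19, the count was also 7. With the replicate block, which matches treatments by sample number and leaves NT4 and N6L3 without a partner, it was 9. Snrpe (FDR 0.0539) and Snrpa1 (FDR 0.0553) were then not called.

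To set the sequences beside these changes, promoters of 300 bases, 250 before and 50 from the RefSeq start (GRCm38.p6), were looked up and found for 46 of the 52 genes. Both strands were searched for 5 motifs. The core bound by ETS factors, spelled CCGGAA, stood in 24 of the 46 promoters (52.2%), beside 16.7% of all promoters and 31.8% of those of tested genes. By family it was found in 6 of 10 Sm/snRNP, 6 of 7 SF3, 6 of 11 SR and 6 of 18 hnRNP promoters. The box with the letters CCAAT was found in 13 of 18 hnRNP promoters (72.2%) and in 4 of 10 Sm/snRNP promoters (40%), beside 43.2% of the promoters of tested genes. The GC box, GGGCGG, was in 33 of the 46 (71.7%), beside 68.4%. The E-box, CACGTG, stood in 6 of the 46 (13.0%), 5 of them among the 18 hnRNP promoters (27.8%), beside 11.6%. The TATA box, TATAAA, was in 7 of the 46 (15.2%), beside 8.90%. The promoters of 3 genes that fell in the cytoplasm are given 5′ to 3′ on the gene's strand, with these motifs in capitals on either strand, where boxes that share letters run together. A match is a description of the letters and not evidence of binding.
Snrpf (chr10:93589609-93589908, minus strand): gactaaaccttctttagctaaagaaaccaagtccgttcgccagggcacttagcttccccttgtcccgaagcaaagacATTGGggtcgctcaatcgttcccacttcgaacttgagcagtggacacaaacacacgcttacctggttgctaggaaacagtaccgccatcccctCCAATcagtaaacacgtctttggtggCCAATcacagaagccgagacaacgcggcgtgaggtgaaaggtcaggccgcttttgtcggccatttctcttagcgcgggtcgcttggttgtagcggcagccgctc
Snrpd3 (chr10:75517792-75518091, plus strand): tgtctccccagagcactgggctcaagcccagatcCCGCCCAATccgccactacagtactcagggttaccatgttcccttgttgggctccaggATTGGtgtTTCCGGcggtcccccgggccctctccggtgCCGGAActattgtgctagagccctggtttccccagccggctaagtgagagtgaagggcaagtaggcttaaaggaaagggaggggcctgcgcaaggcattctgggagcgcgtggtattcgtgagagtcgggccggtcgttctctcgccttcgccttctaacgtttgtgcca
Snrpb2 (chr2:143062819-143063118, plus strand): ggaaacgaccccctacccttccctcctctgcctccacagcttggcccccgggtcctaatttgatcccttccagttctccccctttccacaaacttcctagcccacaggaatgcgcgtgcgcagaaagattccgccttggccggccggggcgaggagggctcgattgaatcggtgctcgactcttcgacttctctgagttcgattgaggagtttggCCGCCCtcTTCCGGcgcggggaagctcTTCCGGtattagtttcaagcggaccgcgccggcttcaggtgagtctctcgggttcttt
Snrpd3 and Snrpb2 each hold the ETS core on one strand or the other in 2 places, and Snrpf holds none but has the CCAAT box in 3 places. Snrpf had the largest decrease of the 3.

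**Figure D2:**
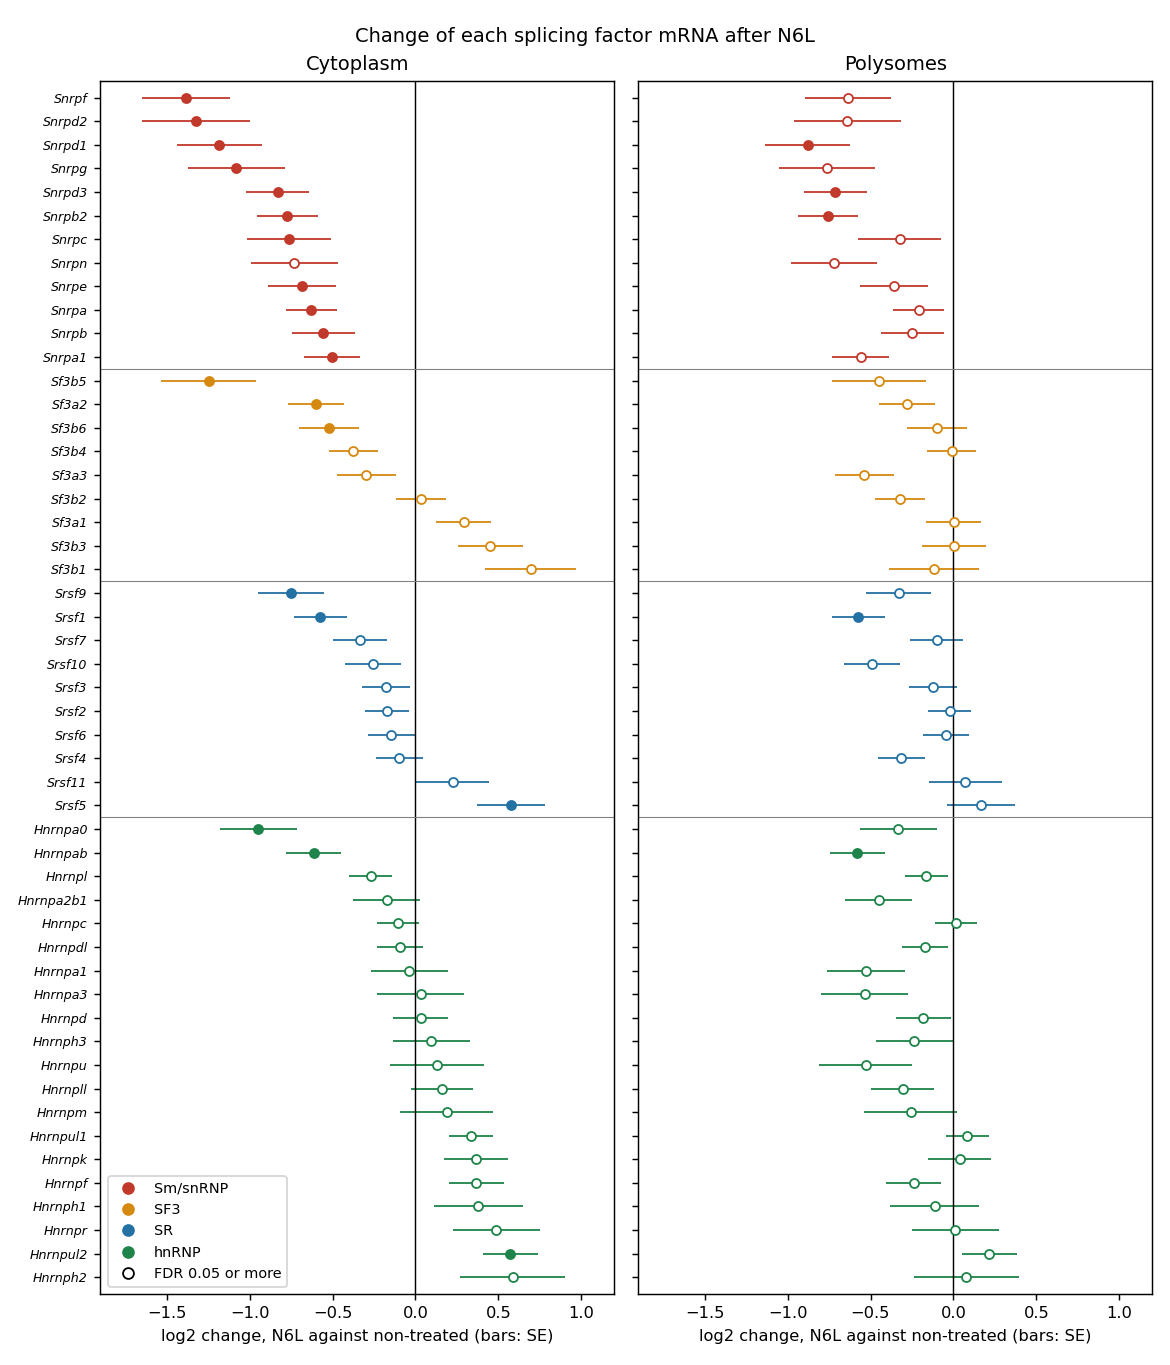
Points show the log2 change of each tested gene between N6L and NT samples (horizontal axis) in the cytoplasm and on polysomes, with bars of 1 SE from the fit to 12 libraries. Filled points have an FDR under 0.05. All 12 Sm/snRNP genes lie left of 0 in both panels, and the hnRNP genes lie on both sides in the cytoplasm.

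SF3 genes changed unevenly. In the cytoplasm 3 of 9 fell past the limit and 0 rose, beside 13.8% and 14.5% of all genes, and the median log2 change was -0.30. N6L and NT values were separate for 5 SF3 genes as lower and 3 as higher, beside 25.6% and 29.3% of all genes. Sf3b5 (ENSMUSG00000078348, chromosome 10 from 13005343 to 13009183, plus strand), the small SF3b10 subunit, was at 110, 112 and 183 CPM in NT1, NT2 and NT4 and at 55.8, 52.2 and 62.5 CPM in the N6L samples. It fell by 1.25 on the log2 scale without overlap (SE 0.29, FDR 0.00776, edgeR), and it was called under all 17 alternatives. Sf3a2, which encodes SF3a66 and links the complex to U2, was measured at 109, 99.8 and 139.9 CPM in the NT and at 81.2, 70.6 and 78.2 CPM in the N6L cytoplasm (log2 change -0.60, SE 0.17, FDR 0.0186, edgeR). Sf3b6, the p14 subunit that contacts the branch point adenosine, went from 87.2, 87.1 and 118 CPM to 61.05, 71.9 and 69.99 CPM (log2 change -0.52, SE 0.18, FDR 0.0432, edgeR). Sf3b5, Sf3a2 and Sf3b6 thus had all 3 N6L values below all 3 NT values. At the other end, Sf3b1, the large scaffold subunit that is mutated in several cancers, was at 188, 221 and 163.5 CPM in the NT and at 271, 348 and 307 CPM in the N6L cytoplasm. Its values did not overlap, and its log2 change of 0.69 (SE 0.27) had an FDR of 0.0686 from edgeR. Sf3b3 and Sf3a1 were also higher without overlap, with log2 changes of 0.45 (FDR 0.0910) and 0.29 (FDR 0.194). Without NT4 or without N6L2, 1 SF3 gene was called, and 7 were in the fit of only the cytoplasmic libraries, Sf3b1 and Sf3b3 among them as higher. With the replicate block Sf3b1 (log2 change 0.88, FDR 0.0232) and Sf3b3 (0.51, FDR 0.0440) were called higher and Sf3b6 was not called (FDR 0.0504). With the offset for transcript length and GC content, neither was called higher. The log2 changes were then 0.20 for Sf3b1 (FDR 0.251), 0.05 for Sf3b3 (FDR 0.768) and -0.13 for Sf3a1 (FDR 0.339, all edgeR).

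Among SR genes, 2 of 10 fell and 1 rose in the cytoplasm, beside 13.8% and 14.5% of all genes, and the median log2 change was -0.17. N6L and NT values were separate for 4 SR genes as lower and 0 as higher, beside 25.6% and 29.3% of all genes. Srsf9 (ENSMUSG00000029538, chromosome 5 from 115327177 to 115333080, plus strand), also known as SRp30c, was at 157, 136 and 186 CPM in the NT samples. In the N6L samples it was at 86.4, 96.85 and 102 CPM, all lower, and the log2 change was -0.75 (SE 0.20, FDR 0.0143, edgeR). Srsf1 (ENSMUSG00000018379, chromosome 11 from 88047373 to 88053755, plus strand), the founding SR protein and a known oncoprotein, was at 313, 259.7 and 336 CPM without and at 193.5, 235 and 182 CPM with N6L. It too was separate between treatments, with a log2 change of -0.57 (SE 0.16, FDR 0.0178, edgeR). Srsf5 (ENSMUSG00000021134, chromosome 12 from 80945504 to 80950507, plus strand) was the SR gene that rose, from 197, 284 and 234 CPM to 275, 389 and 401 CPM. Its call was at the edge of the limit (log2 change 0.58, SE 0.21, FDR 0.0498, edgeR), and N6L1 was below NT2. With the replicate block its FDR was 0.0690. Of the rest, Srsf2, the family's most abundant mRNA per length, was at 362, 374 and 421 CPM in the NT and 321, 346.5 and 360.1 CPM in the N6L cytoplasm (log2 change -0.17, FDR 0.334). The other 6 had log2 changes from -0.33 for Srsf7 to 0.23 for Srsf11. Without NT1, NT4 or N6L2, 1 SR gene remained below the limit each time.

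hnRNP genes divided into both directions, 13 above and 7 below 0 in the cytoplasm, with a median log2 change of 0.11. Past the limit, 2 of 20 fell and 1 rose, beside 13.8% and 14.5% of all genes. N6L and NT values were separate for 3 hnRNP genes as lower and 6 as higher, beside 25.6% and 29.3% of all genes. Hnrnpa0 (ENSMUSG00000007836, chromosome 13 from 58125879 to 58128556, minus strand), an intronless relative of the A and B proteins, was at 373, 234 and 397 CPM in NT1, NT2 and NT4. With N6L it was at 143, 193.5 and 184 CPM, below every NT value, a log2 change of -0.95 (SE 0.23, FDR 0.0106, edgeR). Hnrnpab (ENSMUSG00000020358, chromosome 11 from 51600100 to 51606847, minus strand), which encodes an A/B-type protein that binds AU-rich RNA, was at 1018, 846 and 1215 CPM without and 639, 711 and 661 CPM with N6L. The log2 change was -0.61 (SE 0.16, FDR 0.0154, edgeR), again with no overlap. Hnrnpul2 (ENSMUSG00000071659, chromosome 19 from 8820010 to 8834143, plus strand), a relative of hnRNP U with a SAP domain, was the hnRNP gene that rose. It was at 347, 340 and 304 CPM in the NT samples and at 452, 504 and 518 CPM in the N6L samples (log2 change 0.57, SE 0.17, FDR 0.0220, edgeR), without overlap. The most abundant hnRNP mRNA, Hnrnpa2b1, was at 1231, 1037 and 1131 CPM in the NT and at 938.5, 1039 and 1037 CPM in the N6L cytoplasm, so its groups overlapped (log2 change -0.17, FDR 0.536). Hnrnpa1, Hnrnpa3, Hnrnpc, Hnrnpd and Hnrnpm, which encode major proteins of hnRNP particles, had log2 changes between -0.11 and 0.19. Without NT1, 0 hnRNP genes were called, while 5 had an unadjusted p under 0.05 in the fit of all samples and DESeq2 called 5.

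**Figure D3:**
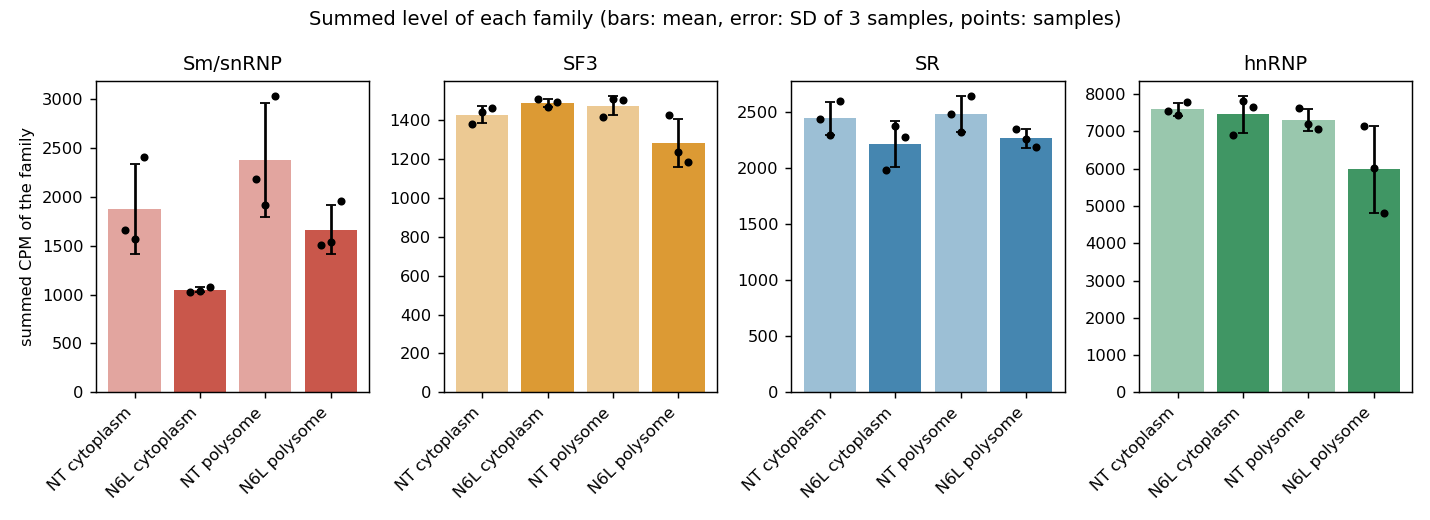
Bars show the mean summed CPM of each family in each group, error bars 1 SD and points the 3 samples, with a separate vertical axis from 0 for each family. The Sm/snRNP sum was 1029 to 1081 CPM in the N6L cytoplasm and 1572 to 2409 CPM in the NT cytoplasm, and the hnRNP sum spread from 4806 to 7147 CPM on N6L polysomes.

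Summed over each family, SF3 mRNA made up 1427 ± 41.7 CPM of the NT and 1488 ± 20.5 CPM of the N6L cytoplasm, SR mRNA 2445 ± 149 and 2215 ± 203 CPM, and hnRNP mRNA 7592 ± 175 and 7461 ± 493 CPM (SD, n = 3). Only the Sm/snRNP sum was without overlap between treatments in the direction of a decrease. The SF3 sum was narrowly without overlap in the direction of an increase, at 1381 to 1461 CPM in the NT and 1466 to 1505 CPM in the N6L cytoplasm. By gene, the SF3 median log2 change was -0.30, with 3 of 9 called lower and 0 higher. Per length, as CPM divided by transcript length in kilobases (FPKM), the mean levels in NT cytoplasm ran from 373 for Snrpb to 0.886 for Snrpn in the Sm/snRNP family. They ran from 94.75 for Sf3b2 to 23.5 for Sf3a1 in the SF3 family, from 203 for Srsf2 to 27.3 for Srsf10 in the SR family and from 692 for Hnrnpa2b1 to 11.04 for Hnrnph3 in the hnRNP family. Neighbours in these orders mostly overlapped in their NT values, with 10 of 11 steps overlapping in the Sm/snRNP, 4 of 8 in the SF3, 6 of 9 in the SR and 13 of 19 in the hnRNP family. Sf3b5 is annotated with a transcript of 3841 bases, of which 258 are coding, so its FPKM may be too low. The cytoplasmic levels of Sf3b2 were 288, 331 and 297 CPM in the NT and 336, 286 and 315 CPM in the N6L samples, and those of Sf3a1 were 122, 118 and 107.5 CPM and 151, 134 and 140.3 CPM. Srsf10 was at 115, 93.8 and 98.9 CPM without and 80.3, 98.1 and 79.2 CPM with N6L. Hnrnph3 was at 19.7, 25.6 and 27.99 CPM without and 19.0, 30.0 and 29.0 CPM with N6L. Sf3a1 was the only one of these 4 genes whose groups did not overlap.

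The families also differ in the length of their mRNAs. The annotated transcripts had a median of 1204 bases for Sm/snRNP genes, 3222 for SF3, 2453 for SR and 2587 for hnRNP genes, beside 2847 for the 12111 protein-coding genes tested. Across those 12111 genes, longer transcripts had higher cytoplasmic log2 changes after N6L (Spearman's rho 0.524 across genes, which are not independent replicates). Of 1634 other protein-coding genes with transcripts of 860.2 to 1548 bases, the middle of the Sm/snRNP range, 37.0% were called lower and 3.55% higher, and their median log2 change was -0.46. With an offset that removes the trend with length and GC content in each library, rho was 0.104 across the protein-coding genes. The Sm/snRNP median was then -0.77, beside -0.05 for all genes tested, with 7 genes called lower and 0 higher. Snrpn was among the 7 (FDR 0.0467), and 5 genes were no longer called, Snrpb (log2 change -0.15), Snrpc (-0.29), Snrpe (-0.25), Snrpa (-0.29) and Snrpa1 (-0.29). Snrpd3, annotated with 3036 bases of which 378 are coding, went from -0.83 to -1.09. With the replicate block as well, the Sm/snRNP median was -0.63 and 8 were called lower, beside 19.8% of all genes. Under the same offset the SF3 median went to -0.22 with 2 of 9 genes called lower and 0 higher. The SR median went to -0.34 with 5 of 10 genes called, 4 lower and 1 higher, and the hnRNP median went to -0.07 with 3 called lower and 0 higher. Hnrnpul2 then had an FDR above the limit. In that fit 18.4% of all genes were called lower and 12.4% higher. Of 5 nuclear-retained RNAs, Meg3 was at 0 counts, and of the 4 tested Neat1 rose in the cytoplasm (log2 change 2.01, SE 0.26, FDR 0.000697, edgeR). Malat1 (0.13, FDR 0.777), Kcnq1ot1 (0.31, FDR 0.608) and Firre (0.29, FDR 0.230) were not called. The 5 summed to 97.4 to 158 CPM in the NT and 221 to 263 CPM in the N6L cytoplasm. Neat1 stood at 27.7, 53.7 and 32.6 CPM in the NT and 134, 164 and 160.2 CPM in the N6L samples, while Malat1 was at 43.4 to 74.6 and 60.6 to 68.7 CPM. The part of Neat1 in the result was not tested.

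**Figure D4:**
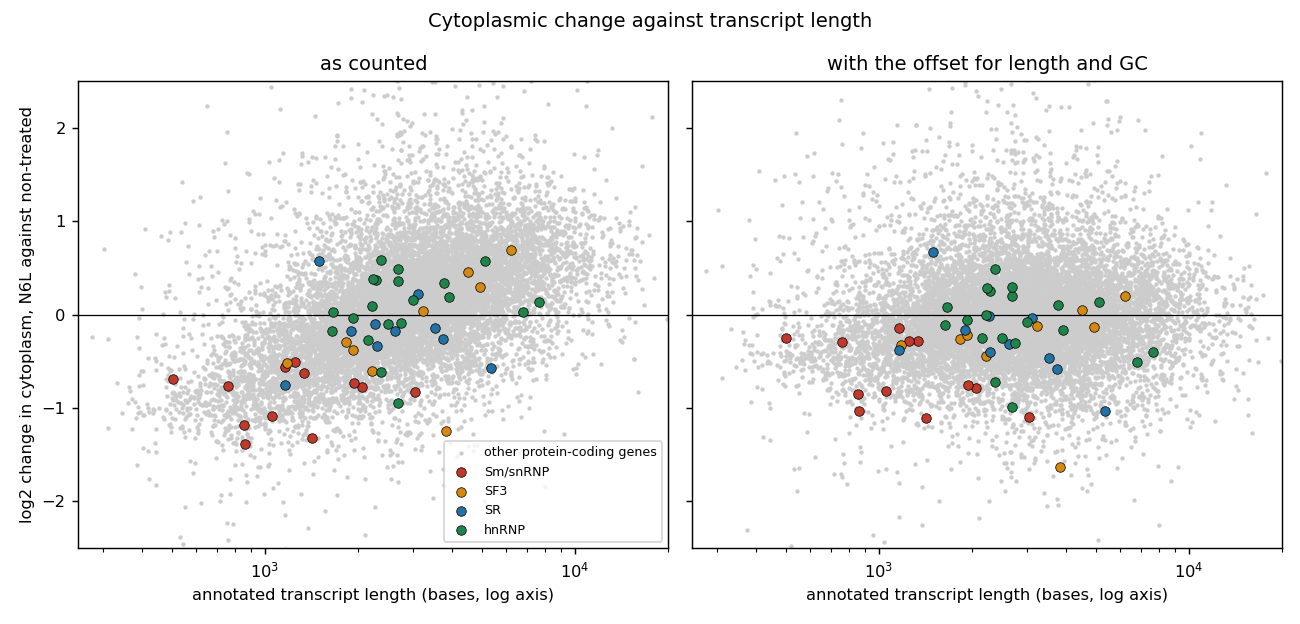
Points show the cytoplasmic log2 change of protein-coding genes (grey) and of the 4 families (colours) against annotated transcript length on a log axis, as counted and with the offset for length and GC content. Genes beyond the ends of the axes are not drawn. The Sm/snRNP genes lie toward the short end, and all 12 are below 0 in both panels.

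On polysomes the same comparison called 5 genes, all lower, beside 3.66% of all genes called lower and 6.01% called higher. Snrpb2 was at 122.5, 85.2 and 111 CPM in the NT and at 68.9, 63.9 and 55.3 CPM in the N6L polysomes (log2 change -0.76, SE 0.18, FDR 0.0210, edgeR). Snrpd3 was at 223, 197 and 317 CPM without and 147, 153 and 149.5 CPM with N6L (log2 change -0.71, SE 0.19, FDR 0.0324, edgeR). Both were separate between treatments, as they were in the cytoplasm. Snrpd1 was the third Sm/snRNP gene called (log2 change -0.88, SE 0.26, FDR 0.0444, edgeR). Srsf1 was at 315, 234 and 284.5 CPM in the NT and 188, 188 and 184 CPM in the N6L polysomes (log2 change -0.57, SE 0.16, FDR 0.0372, edgeR). Hnrnpab went from 1180, 987 and 1412 CPM to 829, 763 and 803 CPM (log2 change -0.58, SE 0.16, FDR 0.0418, edgeR). All 5 were without overlap. In the SF3 family 0 of 9 were called by edgeR, with 1 at an unadjusted p under 0.05. The largest difference there was that of Sf3a3, which encodes SF3a60, with 130.1, 122 and 122 CPM in the NT and 109.9, 86.7 and 61.1 CPM in the N6L polysomes (log2 change -0.54, SE 0.18, FDR 0.0711, edgeR).

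By family, the median log2 change on polysomes was -0.64 for Sm/snRNP, -0.12 for SF3, -0.11 for SR and -0.21 for hnRNP genes, beside 0.00 for all genes tested. Of the 51 genes, 41 had a log2 change below 0. The N6L values lay entirely below the NT values for 13 genes and entirely above for 0, beside 11.9% and 13.7% of all genes. The 5 calls were not stable. They became 0 without NT1, NT4 or N6L2 and in the fit of only the polysomal libraries, 1 (Snrpc) without N6L3, 3 with the replicate block, 8 with DESeq2 and 12 with the offset for length and GC content, where 12.4% of all genes were called lower. With the offset Snrpb2, Snrpd3 and Hnrnpab were still called, Snrpd1 and Srsf1 were not, and 3 of the 12 were SF3 genes. Without N6L1 the count was again 5, but of the genes called in the main fit only Snrpb2 was among them. The log2 changes of the 5 genes called in the main fit stayed below 0 under all 17 alternatives.

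Between the fractions of non-treated cells, 0 of the 51 genes were called by edgeR, and 0 by DESeq2, while 3 had an unadjusted p under 0.05. Over all genes 0.209% were called lower and 0% higher on polysomes. All 12 Sm/snRNP genes had a log2 ratio of polysome over cytoplasm above 0, with a median of 0.30, against 0.04 for SF3, 0.05 for SR and -0.05 for hnRNP genes and 0.03 for all genes. Among the 1634 other protein-coding genes of 860.2 to 1548 bases, the median was 0.22, with 18.6% below 0. With the replicate block and the offset for length and GC content together, 5 genes were called, all higher on polysomes, 3 of them Sm/snRNP and 2 SR genes, beside 1.77% of all genes called higher and 2.74% lower in that fit.

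In N6L-treated cells the fractions differed more. On polysomes 12 of the 51 genes were higher and 10 lower than in the cytoplasm, beside 18.4% and 20.6% of all genes. This comparison shares the N6L cytoplasmic libraries with the cytoplasmic comparison above, so a low cytoplasmic value enters both. Of the Sm/snRNP genes, 6 of 12 were higher and 0 lower, with a median log2 ratio of 0.52. Among them, Snrpd2 and Snrpf had log2 ratios of 1.22 (FDR 0.0121) and 1.07 (FDR 0.00865). The 1634 other protein-coding genes of 860.2 to 1548 bases were alike, with 52.1% called higher, 1.78% lower and a median of 0.58. Sf3b5 (1.28, FDR 0.00655), Sf3b6 (0.70, FDR 0.0102) and Sf3b4 (0.45, FDR 0.0309) were the SF3 genes called higher. Srsf9, Srsf7 and Hnrnpa0 completed the genes that were higher, and they had log2 ratios of 0.71, 0.47 and 0.71. The genes that were lower on polysomes included Sf3b1, with a log2 ratio of -1.30 (SE 0.28, FDR 0.00551), and the SR genes Srsf11 (-0.76, FDR 0.0171) and Srsf10 (-0.67, FDR 0.00950), which encodes a regulator of splicing during heat shock. From the hnRNP family they were Hnrnpu, Hnrnph1, Hnrnpa3, Hnrnpr, Hnrnpa2b1, Hnrnpll and Hnrnpul2, with log2 ratios from -1.07 for Hnrnpu, a scaffold attachment protein, to -0.48 for Hnrnpul2. These calls depended on N6L2 and N6L3: without N6L2 only Sf3b1 and Sf3b5 were called, and without N6L3 only these and Hnrnpu, while without N6L1 27 genes were called. The share of all genes called in these smaller fits is not given here, so the counts cannot be set against the whole table. With the offset for length and GC content 11 genes were called higher and 2 lower, beside 9.55% and 7.83% of all genes. Of the 12 genes called higher in the main fit, only Sf3b5, Sf3b6, Snrpf and Srsf7 were still called. Hnrnpc, Hnrnpd, Snrpb2, Snrpd3, Srsf1, Srsf3 and Srsf6 were called higher with the offset and not in the main fit. With the offset Snrpb and Snrpa had log2 ratios of 0.05 and -0.14. Of the 10 genes called lower without the offset, Hnrnpa3 was still called, and Hnrnpu, Hnrnpul2 and Srsf10 had log2 ratios of 0.0075, 0.0091 and 0.0885, above 0. With the replicate block 16 genes were called higher and 14 lower, beside 26.1% and 27.6% of all genes.

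The 3 N6L samples did not behave alike for the hnRNP mRNAs. Their median log2 ratio of polysome over cytoplasm was -0.05, -0.03 and -0.17 in NT1, NT2 and NT4 and -0.0004, -0.42 and -0.95 in N6L1, N6L2 and N6L3. N6L1 thus lay above the NT samples, while N6L3 held the lowest of the 6 ratios for 15 of the 20 hnRNP genes. For Hnrnpu the ratio was -0.14, -0.54 and -0.57 in the NT and -0.41, -1.14 and -2.12 in the N6L samples. Sm/snRNP ratios were closer together, with medians of 0.42, 0.28 and 0.26 in the NT samples and 0.49, 0.63 and 0.66 in the N6L samples, which did not overlap. The SF3 medians were -0.06, 0.12 and 0.03 in the NT and -0.07, -0.16 and -0.25 in the N6L samples, and the SR medians were 0.04, 0.02 and 0.01 and then 0.19, -0.14 and -0.06.

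**Figure D5:**
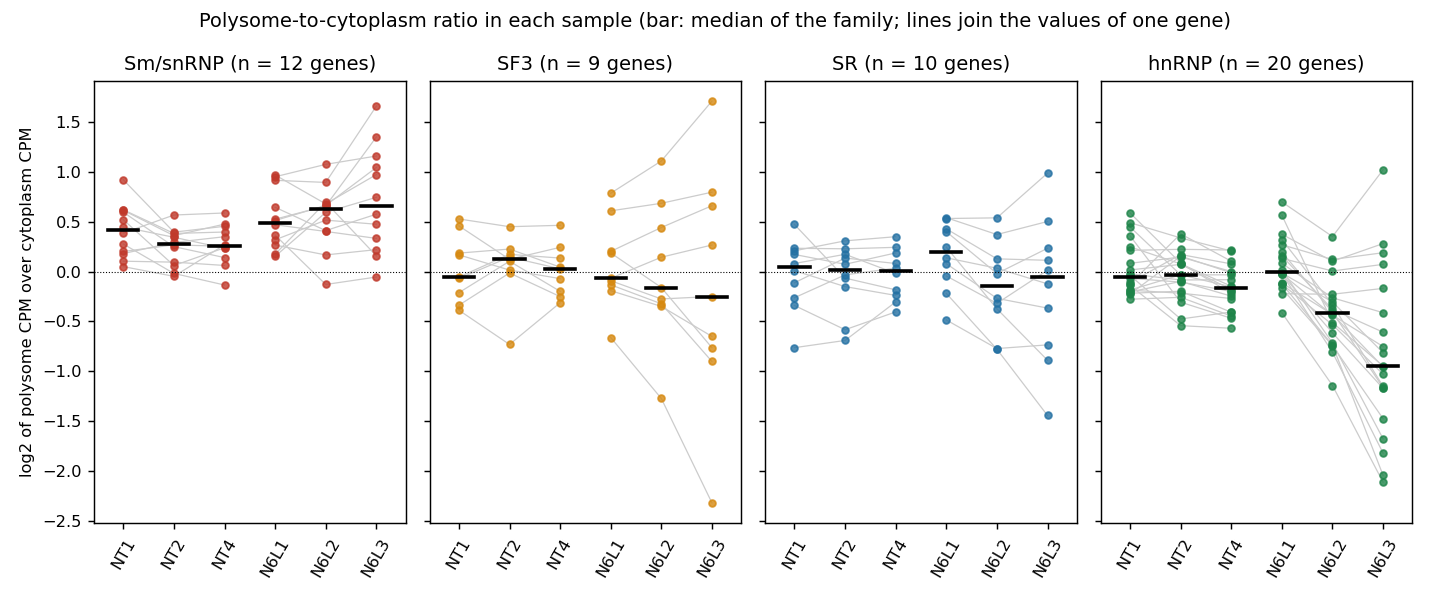
Points show log2 of polysome CPM over cytoplasm CPM for each gene in each of 6 samples, in 1 panel per family. Bars are family medians and lines join the values of one gene within a treatment. The hnRNP medians of the N6L samples spread from -0.0004 to -0.95, and the Sm/snRNP medians of the N6L samples lie above those of the NT samples.

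The translational index is the log2 ratio of polysome over cytoplasm in N6L samples minus that in NT samples. At this depth and number of samples edgeR called 0 of the 51 genes for this index, beside 0% of all genes, while 1074 of all genes had an unadjusted p under 0.05. DESeq2 also called 0 of the 51. An unadjusted p under 0.05 was reached by 1 of the 51, Hnrnpf (index -0.61, SE 0.24, unadjusted p 0.0221, FDR 0.555, edgeR), a binder of G-rich RNA. Its ratios were 0.49, 0.34 and 0.21 in the NT samples and 0.16, -0.38 and -0.61 in the N6L samples. In the cytoplasm it was at 94.4, 116 and 100.5 CPM without and 124, 133 and 145 CPM with N6L. Hnrnpf was separate between treatments in both measures, and its exact two-sided permutation p of 0.1 is the smallest that 3 against 3 samples allow. The largest indices were those of Sf3b1 (-0.81, SE 0.38, FDR 0.555, edgeR), Sf3b5 (0.80, SE 0.40, FDR 0.555, edgeR) and Snrpf (0.75, SE 0.37, FDR 0.555, edgeR). Sf3b5 had ratios of 0.53, 0.45 and 0.46 in the NT and 0.79, 1.11 and 1.71 in the N6L samples. Those of Snrpf were 0.45, 0.34 and 0.23 against 0.95, 1.08 and 1.16. Neither gene's samples overlapped between treatments (exact two-sided permutation p = 0.1 for each). Sf3b1 had ratios of -0.39, -0.73 and -0.31 in the NT and -0.66, -1.27 and -2.32 in the N6L samples, so its NT2 and N6L1 overlapped (exact two-sided permutation p = 0.2). Snrpa had an index of 0.42, with ratios of 0.10, 0.09 and 0.06 in the NT and 0.15, 0.59 and 0.74 in the N6L samples. Srsf9 had an index of 0.42 as well, with ratios of 0.21, 0.31 and 0.35 and then 0.53, 0.54 and 0.99. Both were without overlap. The genes of this paragraph were named for having the smallest unadjusted p of the index in their family. Lack of overlap in the same ratios is therefore not separate support.

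Median indices were 0.31 for Sm/snRNP, -0.24 for SF3, 0.03 for SR and -0.34 for hnRNP genes, beside 0.01 for all genes, and 11 of 12 Sm/snRNP and 4 of 20 hnRNP genes had an index above 0. Ratios were without overlap in the higher direction for 10 of the 51 genes and in the lower direction for 5, beside 15.3% and 14.4% of all genes. The 10 comprised 5 Sm/snRNP, 3 SF3 and 2 SR genes, and the 5 comprised 3 hnRNP and 2 SF3 genes. With the offset for length and GC content the medians were 0.18, -0.02, 0.11 and -0.21, closer to 0 for all families but SR. Across the 12111 protein-coding genes the index fell with transcript length (Spearman's rho -0.599 across genes), and among the 1634 genes of 860.2 to 1548 bases the median index was 0.36.

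A tract of pyrimidines that begins with C at the start of the mRNA marks mRNAs whose translation depends on mTOR. At the RefSeq start, C followed by at least 4 pyrimidines was found in 2 of the 46 genes, Hnrnpa0 and Srsf5, beside 3.01% of all genes and 22.2% of 54 ribosomal protein genes, which are known to carry it, so that this reading of the start misses many. The windows of 10 bases before and 20 bases from the start are shown for these genes and for Snrpf and Srsf1, which lack it, with the run of pyrimidines that begins at the start in capitals.
Hnrnpa0 (chr13:58128537-58128566, minus strand): cttcagcggcCTCTTTgtgtggtgtcccga
Srsf5 (chr12:80945489-80945518, plus strand): caggacgtccCTTCCattttgtgcaacgtc
Snrpf (chr10:93589639-93589668, minus strand): ggccgcttttgtcggccatttctcttagcg
Srsf1 (chr11:88047363-88047392, plus strand): gtttcacccaatctttttagagcgccgagc
Hnrnpa0 had polysome-to-cytoplasm log2 ratios of -0.13, 0.38 and 0.10 in the NT and 0.70, 0.35 and 1.02 in the N6L samples. Srsf5 had 0.47, -0.07 and -0.18 in the NT and 0.24, -0.37 and -0.89 in the N6L samples. The indices of the 2 genes with the tract thus had opposite signs, 0.62 (SE 0.33) and -0.41 (SE 0.29), with FDRs of 0.555 and 0.573 from edgeR.

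Alternative transcripts that could be decayed are annotated for many members. At least 1 transcript marked for nonsense-mediated decay is annotated for 9 of 10 tested SR genes, 10 of 20 hnRNP, 4 of 12 Sm/snRNP and 1 of 9 SF3 genes, beside 28.8% of tested protein-coding genes. A transcript with a retained intron is annotated for 38 of the 51, beside 58.9%. Counts per gene join these forms with the coding ones.

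The other components of the splicing machinery were examined as lists. For comparison, 13.8% of all genes tested were called lower and 14.5% higher in the cytoplasm, and 3.66% lower on polysomes. Transcript length was not taken into account for these lists. All 7 genes of the LSm ring of U6 fell in the cytoplasm, with a median log2 change of -1.10, and the smallest FDRs were those of Lsm2 (-1.45, SE 0.25, FDR 0.00203), Lsm5 (-1.17, SE 0.24, FDR 0.00455) and Lsm8 (-0.72, SE 0.17, FDR 0.00835, all edgeR). Lsm2 and Lsm5 were also called lower on polysomes. Of the 12 genes of the SMN complex and methylosome, which load the Sm ring, 5 fell and 0 rose, with a median of -0.38, among them Gemin6 (-1.08, SE 0.16, FDR 0.00115), Wdr77 (-0.69, SE 0.17, FDR 0.0104) and Smn1 (-0.59, SE 0.15, FDR 0.0121, all edgeR). Gemin6 and Strap were the 2 called lower on polysomes. The snRNP-specific proteins named Snrnp had 2 of 7 genes lower, Snrnp27 (log2 change -0.85) and Snrnp25 (-1.01), and a median of -0.34. Among 9 genes of U2 recruitment 3 fell, Phf5a (-0.92), Rbm17 (-0.46) and U2af1 (-0.49), and among 17 of the tri-snRNP and the Prp19 complex 3 fell, Isy1 (-1.12), Bcas2 (-0.51) and Prpf31 (-0.64). In neither list did a gene rise, and the medians were 0.08 and 0.04. Of 16 hnRNP-class proteins under other symbols 3 fell, the poly(C)-binding proteins Pcbp1 (-0.69) and Pcbp2 (-0.61) and Raly (-0.60), with 0 higher and a median of -0.12. The 18 SR-related regulators and SR protein kinases had 0 genes lower and 2 higher, the long speckle proteins Srrm2 (1.06, SE 0.25, FDR 0.00830) and Son (0.71, SE 0.25, FDR 0.0448, both edgeR), with a median of 0.26. In N6L polysomes 10 of these 18 were lower than in the cytoplasm and 0 higher, beside 20.6% and 18.4% of all genes.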

How the data were processed

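The deposited values are raw read counts per gene for 48 technical replicates, 4 for each of 12 libraries. Poly(A) RNA was sequenced from strand-specific libraries. The authors used bcl2fastq 2.18.0.12, STAR and HTSeq 0.5.3 with build mm10, per the labels. How HTSeq was set for strand, and what was done with multi-mapped reads, is not given in the sources used here. Technical replicates were summed, since they differed by little more than sampling noise (ratio of chi-square to its degrees of freedom, 1.016 to 1.044). The labels of 3 technical replicates of N6L2 cytoplasm disagree on the sample number, and the title was followed.

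Symbols, coordinates and lengths came from GENCODE vM21 (GRCm38), which held 50376 of the 50600 identifiers, and promoters from RefSeq. In R 4.3.3, edgeR 4.0.16 was run with filterByExpr, TMM and glmQLFit on all 12 libraries with 1 mean per group, and glmQLFTest with a limit of 0.05. DESeq2 1.42.0 served as an alternative. Ratios per sample are from log2 CPM with a prior count of 2. The fit was tested on simulated data. Named genes are those with the smallest FDR in each family (up to 3 in the cytoplasm and 2 on polysomes, otherwise the largest change at a mean of 10 CPM or more), the 2 with the smallest p for the index, and the most and least abundant. Srsf7, Hnrnpu and others named for a count or call were chosen after their values were seen. Members and lists were chosen with earlier results of these data known.

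Both fractions of a sample come from one lysate, per the methods of the study, so they are paired. After the group mean of each gene was subtracted, the correlation between the 2 fractions was 0.364, 0.452 and 0.645 in NT1, NT2 and NT4, and 0.0368, 0.199 and 0.230 in N6L1, N6L2 and N6L3. Alternatives were RLE factors, library size alone, other filters, DESeq2, technical replicate a alone, the conflicting replicates left out, each sample left out, fits of only the groups compared, the replicate block (lysate between fractions, sample number between treatments) and an offset for length and GC content. The labels do not say whether equal sample numbers in the treatments belong together, and NT4 and N6L3 have no partner number. In the block by sample number, NT1, NT2, N6L1 and N6L2 alone set the treatment difference averaged over both fractions. Lengths for the offset are annotated, not measured.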

Additional observations from a re-analysis of the deposited data

How the results depend on the processing

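The 20 genes called in the cytoplasm kept their direction under all 17 alternatives, and 6 of them, Snrpf, Snrpd1, Snrpd2, Snrpd3, Snrpb2 and Sf3b5, stayed past the limit in each. When 1 sample was left out, 9 to 17 genes were called in the cytoplasm, 0 to 6 on polysomes and 2 to 27 between fractions of N6L samples. Of those in the cytoplasm, 5 to 9 were Sm/snRNP, 1 to 3 SF3, 1 to 3 SR and 0 to 3 hnRNP genes. The median index then ranged from 0.21 to 0.40 for Sm/snRNP and from -0.40 to -0.0120 for SF3 genes, the SF3 median between fractions of N6L samples from -0.26 to 0.0246, and the hnRNP median in the cytoplasm from -0.0107 to 0.19. On polysomes the count was 8 with no filter on low counts, 0 in the fit of only the groups compared, 3 with the replicate block, 12 with the offset for length and GC content, 14 with block and offset together and 8 with DESeq2. Of all genes, 3.77% were called lower there with the block, 12.4% with the offset and 12.7% with block and offset, beside 3.66% in the main fit. Between fractions it was 5 in NT samples with block and offset and 13 in N6L samples with the offset. In the cytoplasm 7 Sm/snRNP genes were called with library size alone and 7 with the offset, 7 SF3 genes in the fit of only the groups compared, 5 SR genes with the offset and 6 with block and offset, and 5 hnRNP genes with no filter, in the fit of only the groups compared and with DESeq2. There, 18.4% of all genes were called lower and 12.4% higher with the offset, and 19.8% and 13.1% with block and offset. Shares of all genes are not given for fits with 1 sample left out, only the groups compared, other filters or scaling, or DESeq2. Their counts cannot be set against the whole table.

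With library size alone, the cytoplasmic medians were -0.15 for SF3, -0.0272 for SR and 0.26 for hnRNP genes, and those between fractions of N6L samples 0.38 for Sm/snRNP and -0.32 for SF3 genes. The offset gave cytoplasmic medians of -0.34 for SR and -0.0724 for hnRNP genes, a median of -0.0029 between fractions of N6L samples for SF3 genes, and median indices of 0.18 for Sm/snRNP and -0.0166 for SF3 genes. With block and offset these were -0.17 for SF3 and -0.0116 for hnRNP genes in the cytoplasm, -0.0036 for SF3 genes between fractions, and 0.17 and -0.0281 for the indices of Sm/snRNP and SF3 genes. The replicate block alone gave 0.21 for the hnRNP cytoplasm. Between fractions of N6L samples, the log2 ratios changed sign with the offset, alone and with the block, for Sf3b4 (-0.0029 and -0.0036), Srsf10 (0.0885 and 0.0763), Snrpa (-0.14 and -0.14) and Hnrnpul2 (0.0091 and 0.0111), and with the offset alone for Hnrnpu (0.0075). The cause was not tested. In the cytoplasm the replicate block ended the calls of Snrpe, Snrpa1, Sf3b6 and Srsf5 and added Sf3b1 and Sf3b3. The offset rests on annotated lengths, and that of Sf3b5 is doubtful. The fit of only the groups compared gives no index.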
